A study of Mus musculus with 48 samples.

Results

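The Id genes encode helix-loop-helix proteins without a DNA-binding basic region. All 4 genes of the mouse family, Id1, Id2, Id3 and Id4, were taken by symbol from a table of 25229 gene symbols. The family was chosen by the measured 24-h pattern of Id2, which had been seen to be stronger in the arcuate nucleus than in the nodose ganglion. For that reason the 24-h pattern of Id2 and its difference between tissues are given as descriptions, with no test. All 4 members passed the filter on low counts in both tissues, among 16102 arcuate and 14867 nodose genes.

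Id proteins bind E proteins, the broadly expressed basic helix-loop-helix partners, and keep them and their dimers off the E-box sequences of target genes. Bone morphogenetic protein (BMP) signalling through SMAD proteins is a well known inducer of Id1, Id2 and Id3 transcription, and Id proteins act in precursor, glial and endothelial cells. Id2 is also known as a gene with daily rhythms, and its protein can bind circadian clock proteins of the basic helix-loop-helix class.

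RNA was sequenced from arcuate micropunches, from the part of the hypothalamus that holds feeding-related neurons, and from nodose ganglia of the left side, where sensory neurons of the vagus nerve have their cell bodies. All mice were male Rev-erba/b flox/flox animals on a C57Bl/6J background, aged 10 to 12 weeks per the labels, fed chow and kept at 27 °C in 12 h light and 12 h dark. Control mice had received AAV8-TBG-EGFP and HepDKO mice AAV8-TBG-Cre by tail vein at 6 to 10 weeks of age, 2 to 4 weeks before collection. Control mice thus carried the same floxed alleles, and TBG is a hepatocyte promoter, so the deletion was directed at the liver and not at the tissues sequenced. Tissue was collected at 4 zeitgeber times (ZT, counted in hours from lights on): 4, 10, 16 and 22. Each of the 16 groups of tissue, genotype and time had 3 libraries, 48 in all. Each library was a pool of 3 to 4 arcuate nuclei or 4 nodose ganglia.

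Arcuate libraries held 15483922 to 20399718 counts and nodose libraries 1813994 to 10422914, and the residual SDs of the members on the log2 scale were 0.09 to 0.25 in arcuate and 0.37 to 0.43 in nodose. Of the 9 listed vagal sensory neuron markers, P2rx2, P2rx3, Prdm12, Scn10a and Slc17a6 had medians under 1 CPM in nodose libraries, and 4 of the 9 had a median of 0. The 5 skeletal muscle markers summed to between 3454 and 65313 CPM there. The tissue labelled nodose was therefore poor in transcripts of its defining neurons. All mice are labelled male, but the female-specific transcript Xist reached 1914 counts in 1 arcuate library (HepDKO ZT10 replicate 3) and 1694 in 1 nodose library (HepDKO ZT10 replicate 2). The other libraries had at most 10 and 13. Called rhythms, and that of Id3 in nodose, are therefore also given without those libraries.

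The genes lie on 4 chromosomes. In the GENCODE annotation of GRCm38, the build that matches the mm10 genome named by the submitters, Id1 lies at chr2:152736251-152737410 on the plus strand and Id3 at chr4:136143497-136145755 on the plus strand. Id2 lies at chr12:25093799-25097140 on the minus strand and Id4 at chr13:48261228-48266026 on the plus strand. RefSeq promoter sequence (GRCm38.p6) was matched for 3 members, Id2, Id3 and Id4. The sequences of Id2 and Id4, which had opposite daily phases in arcuate (below), are shown. That of Id3 is not shown because all 250 bases of its window lie in annotated exons. Capitals mark matches on either strand to GGCGCC, a GC-rich SMAD motif, to CAGCTG, an E-box of E proteins, and to CCAAT, the NF-Y box, which reads ATTGG on the other strand. The Id2 stretch is chr12:25096254-25096342 on the minus strand, from 250 to 162 bases before the RefSeq start, in the first intron of a longer GENCODE transcript. The 161 bases nearer the start lie in an exon of that transcript and are not shown. The Id4 stretch is chr13:48260866-48261115 on the plus strand, the 250 bases before the RefSeq start, and overlaps no annotated exon.
Id2: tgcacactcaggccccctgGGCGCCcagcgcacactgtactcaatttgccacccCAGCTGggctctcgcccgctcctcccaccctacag
Id4: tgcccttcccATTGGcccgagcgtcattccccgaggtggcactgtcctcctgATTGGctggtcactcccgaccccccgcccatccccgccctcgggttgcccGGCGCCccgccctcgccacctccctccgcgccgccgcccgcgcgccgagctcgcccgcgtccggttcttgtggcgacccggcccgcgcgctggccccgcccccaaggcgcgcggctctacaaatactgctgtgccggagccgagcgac
Over the whole 250-base windows, GGCGCC occurred once in Id2 and once in Id4 and is present in 9.59% of 32851 RefSeq windows of this length. CAGCTG occurred once in Id2, against a share of 13% of all windows. CCAAT occurred 3 times in Id2, 2 times in Id4 and in no place in Id3, against a share of 33.8%. The canonical E-box CACGTG (6.02% of windows), the ROR and REV-ERB core motif AGGTCA (14%) and the D-box TTATGTAA (0.819%) had no match in the windows of Id2, Id3 or Id4. The Id3 window lies wholly in exons, so its lack of matches does not describe sequence before the GENCODE start of Id3. A match is a run of letters, not a measured binding site.

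In arcuate, Id2 was high around the start of the light phase and low around its end. CPM denotes each gene's counts scaled to the TMM-adjusted library size. In Control libraries Id2 was 61.7, 53.5 and 56.5 CPM at ZT4, 43.2, 43.0 and 47.3 at ZT10, 39.9, 43.3 and 42.9 at ZT16, and 73.4, 59.4 and 55.2 at ZT22. HepDKO libraries had 57.3, 64.6 and 51.6 CPM at ZT4, 44.9, 46.8 and 40.5 at ZT10, 47.1, 41.6 and 41.1 at ZT16, and 63.5, 61.4 and 61.0 at ZT22. All 12 libraries of ZT4 and ZT22 lay above all 12 of ZT10 and ZT16, in both genotypes. The ordered group means fell into 2 blocks: 62.7 to 57.2 CPM at ZT22 and ZT4, and 44.5 to 42.0 CPM at ZT10 and ZT16. Within each block neighbouring groups overlapped.

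The fitted 24-h component of Id2 had an amplitude, from mean to peak on the log2 scale, of 0.33 (SE 0.0327) and a peak at ZT0.754, which is 1.58-fold from trough to peak. It was 0.33 (SE 0.0463) in Control with a peak at ZT0.807, and 0.32 (SE 0.0462) in HepDKO with a peak at ZT0.698. For scale, 73 of the 622 genes called rhythmic in arcuate (adjusted p under 0.05 by the quasi-likelihood test of edgeR after Benjamini-Hochberg adjustment) had a larger amplitude than Id2, and the median amplitude of the 622 was 0.17. Id2 is itself among the 622, through the contrast that chose the family. These values support nothing by themselves.

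Id3 and Id4 in arcuate ran opposite to Id2, and both passed the test for a 24-h rhythm, where 3.86% of all genes tested were called. Among Control libraries, Id3 was 21.8, 17.02 and 17.6 CPM at ZT4, 18.5, 26.2 and 24.6 at ZT10, 24.97, 26.5 and 24.2 at ZT16, and 18.5, 20.8 and 21.0 at ZT22. The HepDKO libraries had 19.3, 19.9 and 19.4 CPM of Id3 at ZT4, 19.4, 23.7 and 24.0 at ZT10, 27.0, 23.5 and 23.8 at ZT16, and 20.1, 16.8 and 21.4 at ZT22. Of the 12 libraries of ZT10 and ZT16, 10 lay above every library of ZT4 and ZT22. The exceptions were 1 Control and 1 HepDKO library of ZT10. The amplitude of Id3 was 0.22 (SE 0.0419) with a peak at ZT14.2, and its adjusted p was 0.0104 (edgeR). Amplitudes were 0.23 (SE 0.0594) in Control and 0.20 (SE 0.0591) in HepDKO, with peaks at ZT14.3 and ZT14.0. Without the HepDKO ZT10 library that held Xist, the amplitude was 0.21 and the adjusted p 0.0151 (edgeR).

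Id4, the most abundant member in arcuate, had the smaller relative change. In Control it was 108, 115 and 107 CPM at ZT4, 110, 118 and 106 at ZT10, 139, 120 and 130 at ZT16, and 94.9, 110 and 106 at ZT22. In HepDKO it was 93.3, 105 and 83.5 CPM at ZT4, 117, 117 and 121 at ZT10, 104, 117 and 107 at ZT16, and 111, 106 and 111 at ZT22. Of the 12 libraries of ZT10 and ZT16, 8 lay above every library of ZT4 and ZT22, so the time points overlapped more than for Id2 or Id3. Its amplitude was 0.13 (SE 0.0264) with a peak at ZT14.3 and an adjusted p of 0.0182 (edgeR). The amplitude was 0.13 in each genotype (SE 0.0373 in Control, 0.0374 in HepDKO). Leaving out HepDKO ZT16 replicate 2 ended the call (amplitude 0.11, adjusted p 0.0595 by edgeR), while without the HepDKO ZT10 library that held Xist the adjusted p was 0.0261 (edgeR).

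The fitted peaks of Id3 and Id4 lay 10.6 h and 10.4 h from that of Id2. With 4 times 6 h apart, peak times are only as fine as a 24-h curve through 4 points allows. Within single libraries, where scaling cancels, the ratio of Id2 to Id3 counts had medians of 3.05, 1.95, 1.73 and 3.01 at ZT4, ZT10, ZT16 and ZT22 (n = 6 each). The ratio spanned 2.63 to 3.97 over the libraries of ZT4 and ZT22 and 1.60 to 2.33 over those of ZT10 and ZT16, with no overlap. The ratio of Id2 to Id4 had medians of 0.592, 0.388, 0.358 and 0.560. Its range was 0.465 to 0.774 at ZT4 and ZT22 and 0.287 to 0.451 at ZT10 and ZT16, again without overlap. Because Id2 is in each ratio, they describe the same rhythm and are no separate support.

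**Figure D1:**
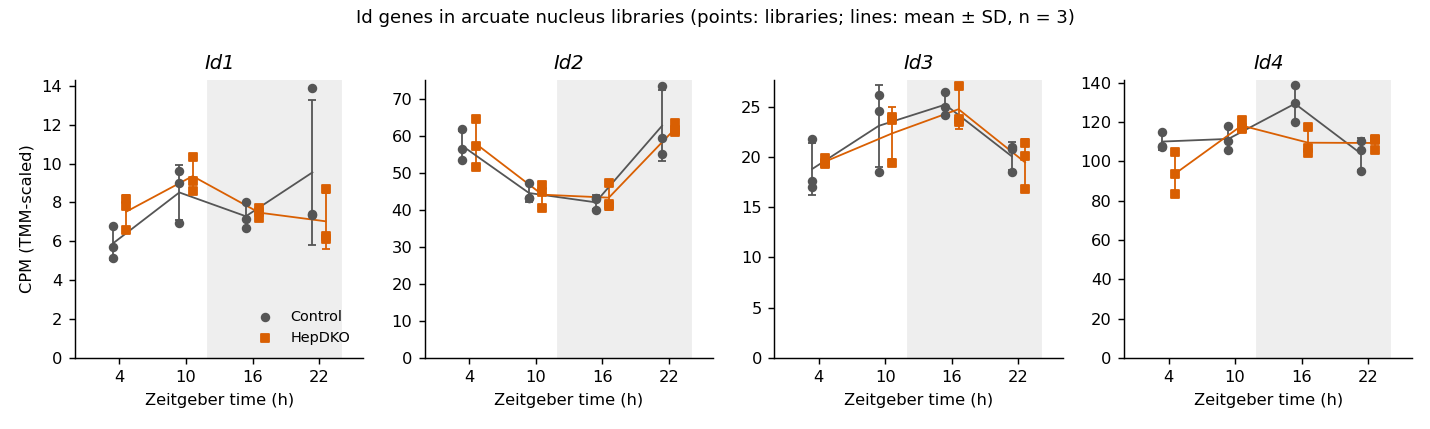
CPM of the Id genes in the arcuate libraries against zeitgeber time in hours, with the dark phase shaded; points are libraries, lines join group means and bars are SD (n = 3). The 12 libraries of ZT4 and ZT22 lie above the other 12 for Id2, while the means of Id3 were highest at ZT16 in both genotypes and those of Id4 at ZT16 in Control (129 CPM) and at ZT10 in HepDKO (118 CPM).

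Id1, the least abundant member in arcuate, had no called 24-h rhythm there. Its amplitude was 0.10 (SE 0.0691) with an adjusted p of 0.615 (edgeR). The Control libraries had 5.70, 5.16 and 6.79 CPM at ZT4, 9.61, 6.94 and 8.99 at ZT10, 6.69, 7.15 and 8.03 at ZT16, and 13.9, 7.39 and 7.37 at ZT22. HepDKO libraries had 6.56, 7.81 and 8.20 CPM at ZT4, 9.12, 10.3 and 8.61 at ZT10, 7.70, 7.52 and 7.21 at ZT16, and 6.27, 6.13 and 8.68 at ZT22. The single value of 13.9 CPM, from Control ZT22 replicate 1, was the highest of the 24 arcuate libraries, and the same library also had the highest Id2. Without it the amplitude of Id1 was 0.17, with an adjusted p of 0.144 (edgeR). A 12-h component was also fitted, as the mean of ZT4 and ZT16 minus the mean of ZT10 and ZT22. For Id1 in arcuate it was -0.29 on the log2 scale (SE 0.0975, unadjusted p 0.00655, adjusted p 0.493 by edgeR). For Id2 in nodose, which is described below, it was 0.36 (SE 0.132, unadjusted p 0.012, adjusted p 0.707 by edgeR). None of the 4 members was called for it in either tissue, where 0.0124% of arcuate and 0% of nodose genes were. In nodose 1029 genes passed at an unadjusted p under 0.05, and DESeq2 called 8.

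**Figure D2:**
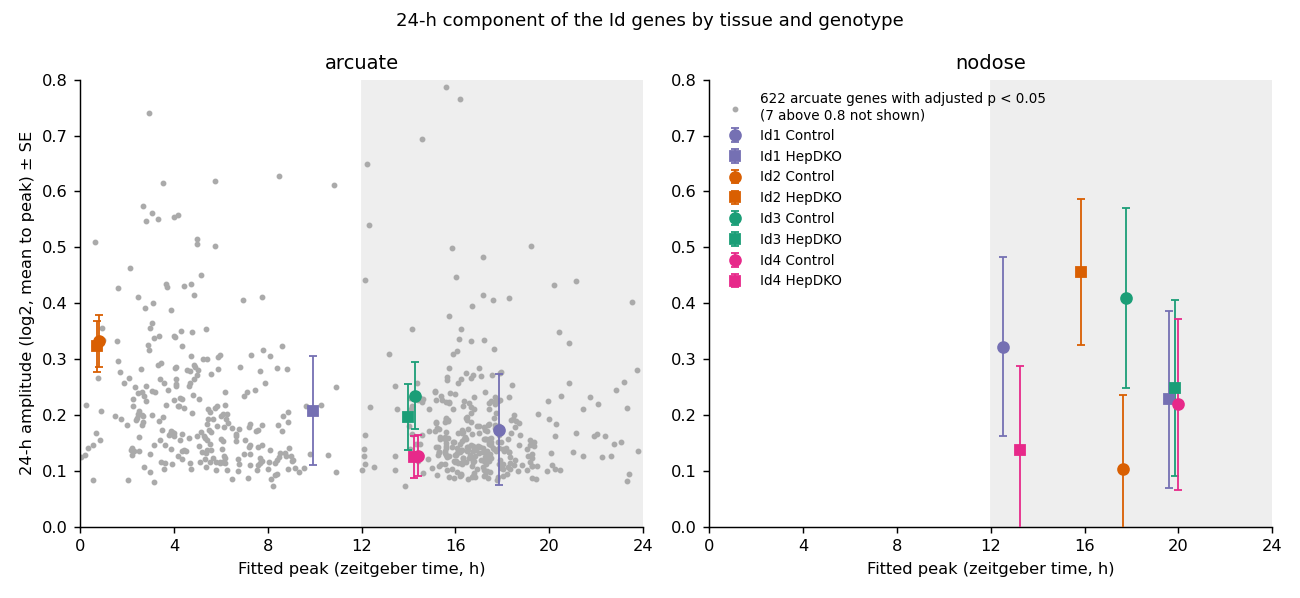
Amplitude of the 24-h component (log2, mean to peak, ± SE) against its fitted peak in ZT hours for each Id gene, by tissue and genotype (circles Control, squares HepDKO); grey dots are the 622 arcuate genes called rhythmic, 7 of which lie above the axis limit of 0.8. In arcuate, Id2 stands at ZT0.698 to ZT0.807 and Id3 and Id4 between ZT14.0 and ZT14.4 in both genotypes, while nodose values have wide errors.

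Markers of other cell types are given beside these results. The summed CPM of 10 endothelial markers had medians of 172, 148, 174 and 196 at ZT4, ZT10, ZT16 and ZT22, and 3 of the 10 were called rhythmic, where 3.86% of all genes were (Cldn5, Flt1 and Tie1, with peaks at ZT21.1, ZT20.3 and ZT2.43). Its Pearson r with Id2 was 0.50 over the 24 libraries, as a description of libraries that share time points. Other marker sums had an r with Id2 of similar size: 0.56 for the vagal sensory list, -0.53 for arcuate neurons, 0.47 for skeletal muscle, -0.47 for tanycytes and ependyma, 0.45 for general neurons and 0.42 for oligodendrocytes. For 7 astrocyte markers, none was called, and their sum ranged from 3044 to 3477 CPM in Control and from 2154 to 3281 in HepDKO, with an r of 0.46 with Id4. The r with Id4 was 0.59 for microglia, whose sum ranged from 121 to 147 CPM in Control and from 105 to 141 in HepDKO, -0.51 for general neurons, -0.51 for the vagal sensory list and -0.50 for oligodendrocytes. With Id3 the r was 0.50 for tanycytes and ependyma, 1 of whose 6 markers was called rhythmic, -0.48 for the vagal sensory list, -0.42 for general neurons and 0.41 for arcuate neurons. Apart from the endothelial and astrocyte scores fitted next, the part of these cell types in the results was not tested. The general neuron markers summed to between 2301 and 2804 CPM, and all 10 arcuate neuron markers were detected. In a fit with endothelial and astrocyte marker scores as covariates, the amplitude was 0.32 for Id2, 0.25 for Id3 (adjusted p 0.00353, edgeR) and 0.12 for Id4 (adjusted p 0.0117, edgeR). In bulk tissue, a change in the share of a cell type and a change of RNA per cell cannot be told apart.

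Id family members differed in how they followed each other over arcuate libraries. Over the 24 libraries Pearson's r of log2 CPM was -0.63 for Id2 and Id3, -0.56 for Id2 and Id4 and 0.45 for Id3 and Id4. After the mean of each group was removed these were 0.11, -0.20 and 0.10, so these relations lay mostly between groups. Id1 and Id2 went the other way, with an r of -0.01 over all libraries and 0.54 after group means were removed. Both values include Control ZT22 replicate 1, which had the highest Id1 and the highest Id2 of the 24 libraries, and were not computed without it. The 5 arcuate genes with the highest r with Id2 were Fdft1 (0.81), Mmp14 (0.81), Tmem44 (0.80), Rnf144a (0.77) and the clock gene Arntl (0.77), over 24 libraries that share their time points and their scaling. Mmp14 had an amplitude of 0.51 and a fitted peak at ZT0.613. Those of Id3 were Ccar1 (0.80), Apcdd1 (0.79), Mmadhc (0.78), Tra2b (0.77) and Mettl7a1 (0.76). For Id4 they were Cadm1 (0.89), Gad1 (0.88), Gad2 (0.83), Kctd12 (0.82) and Npffr1 (0.82); Gad1 and Gad2 encode the enzymes that make GABA. Id1 was nearest to Ctla2a (0.84), Slc9a3r2 (0.74), Smim3 (0.74), Hr (0.73) and Acvrl1 (0.71), the last a BMP receptor of endothelium.

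Nodose libraries gave no called 24-h rhythm for Id1, Id3 or Id4, in a tissue where 1.33% of genes were called. Id2 there was 23.1, 22.05 and 17.7 CPM in Control at ZT4, 14.2, 12.8 and 18.4 at ZT10, 25.1, 21.2 and 24.9 at ZT16, and 17.7, 14.8 and 15.5 at ZT22. In HepDKO it was 15.1, 14.8 and 10.4 CPM at ZT4, 16.9999, 16.98 and 14.4 at ZT10, 25.04, 25.2 and 25.6 at ZT16, and 20.7, 19.8 and 6.42 at ZT22. The 6 libraries of ZT16 lay between 21.2 and 25.6 CPM, and only 2 of the other 18, both Control libraries of ZT4, reached that range. In arcuate ZT16 was the time of the lowest mean. The fitted component of Id2 in nodose had an amplitude of 0.28 (SE 0.0928) with a peak at ZT16.2. The means over both genotypes were 17.2, 15.6, 24.5 and 15.8 CPM at ZT4, ZT10, ZT16 and ZT22. It was 0.10 (SE 0.132) in Control and 0.46 (SE 0.13) in HepDKO, and the difference in rhythm between genotypes was not called (size 0.37, SE 0.186, adjusted p 0.982 by edgeR). The 24-h components of Id2 in the 2 tissues differed by 0.54 (SE 0.0985) on the log2 scale, the contrast that chose the family and so not tested; for all genes tested, 0.373% were called for this difference. This size combines amplitude and phase. The amplitudes, 0.33 in arcuate and 0.28 in nodose, were near each other, that of HepDKO was larger in nodose (0.46) than in arcuate (0.32), and the fitted peaks lay at ZT0.754 and ZT16.2.

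Id3 in nodose had an amplitude of 0.32 (SE 0.112) with a peak at ZT18.6 and an adjusted p of 0.339 (edgeR). Its Control libraries had 22.6, 36.4 and 21.3 CPM at ZT4, 25.5, 19.0 and 30.4 at ZT10, 41.8, 43.3 and 50.8 at ZT16, and 39.4, 25.3 and 31.3 at ZT22. The HepDKO values were 33.7, 29.5 and 24.9 CPM at ZT4, 32.6, 30.0 and 25.6 at ZT10, 38.2, 30.1 and 37.3 at ZT16, and 27.6, 20.6 and 70.0 at ZT22. The value of 70.0 CPM came from HepDKO ZT22 replicate 3, which also had the highest Id1 (27.3 CPM) and the lowest Id2 (6.42 CPM) of all nodose libraries. Without that library the amplitude of Id3 was 0.25, with an adjusted p of 0.152 (edgeR). Without the nodose library that held Xist it was 0.33, with an adjusted p of 0.417 (edgeR).

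Id1 in nodose ranged from 7.85 to 27.3 CPM, with an amplitude of 0.17 (SE 0.114, adjusted p 0.740 by edgeR). Id4 ranged from 10.5 to 26.5 CPM, with an amplitude of 0.12 (SE 0.108, adjusted p 0.849 by edgeR). That amplitude was 0.07843 without HepDKO ZT4 replicate 3 and 0.2213 without HepDKO ZT4 replicate 1. Neighbouring group means of Id1, Id3 and Id4 overlapped throughout their order in nodose. The rhythm difference between tissues was not called for Id1 (adjusted p 0.944), Id3 (size 0.30, SE 0.119, adjusted p 0.514) or Id4 (adjusted p 0.902) by an F test on the edgeR fits of both tissues. Without nodose HepDKO ZT22 replicate 3 the size for Id3 was 0.14, with an adjusted p of 0.678 (edgeR). In a fit with muscle and adipocyte marker scores as covariates the nodose amplitudes were 0.12, 0.29, 0.30 and 0.13 for Id1, Id2, Id3 and Id4.

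**Figure D3:**
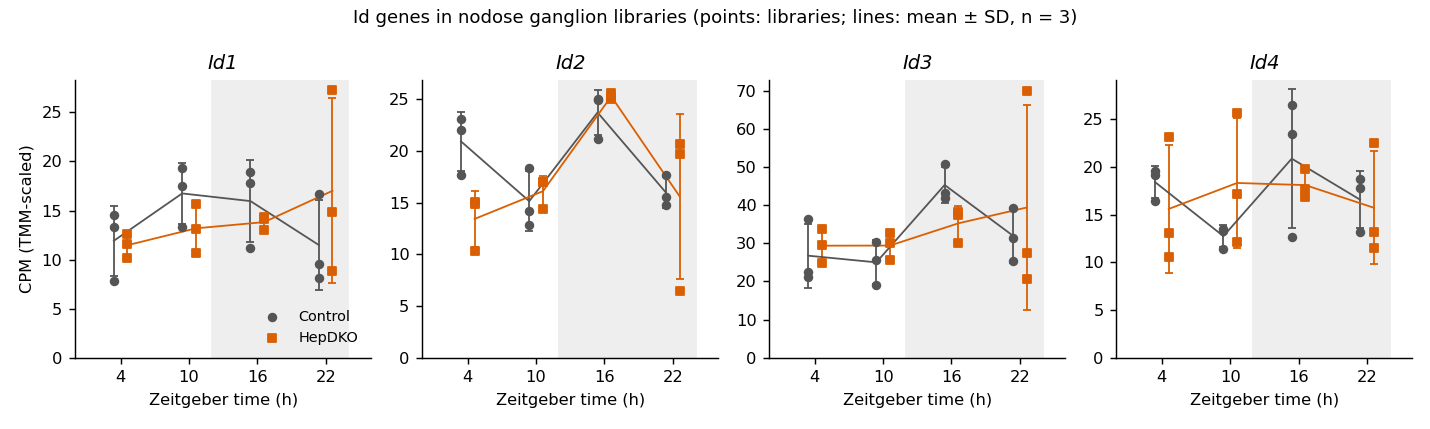
CPM of the Id genes in the nodose libraries against zeitgeber time in hours, drawn as for arcuate (points are libraries, lines join group means, bars are SD, n = 3). The Id2 libraries of ZT16 lie between 21.2 and 25.6 CPM, and HepDKO ZT22 replicate 3 stands apart at 70.0 CPM of Id3, 27.3 of Id1 and 6.42 of Id2.

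Over nodose libraries the closest pair of members was Id1 and Id3 (r 0.57, and 0.70 after group means were removed). The value of HepDKO ZT22 replicate 3 is in both. The genes most like Id4 in nodose were Eng (0.81), Edn1 (0.81), Lepr (0.80), Bmp4 (0.80) and Vwf (0.79); Eng, Edn1 and Vwf are genes of endothelial cells. The summed CPM of 10 endothelial markers ranged from 555 to 1065 in nodose, against 136 to 206 in arcuate, with an r of 0.49 with both Id1 and Id4 in nodose. For Id1 the r was also 0.46 for adipocyte, 0.41 for skeletal muscle and -0.40 for Schwann cell markers, and for Id2 it was -0.47 for skeletal muscle. The list of arcuate neuron markers, 7 of whose 10 genes had a median of 0 in nodose, had an r of 0.81 with Id4 and 0.52 with Id2. That list holds Lepr, which is also among the genes most like Id4. For Id4 it was 0.41 for microglia, and for Id3 0.42 for fibroblasts. Beyond the muscle and adipocyte scores given above as covariates, the part of these cell types was not tested. Genes most like Id3 were Pkd1, Hdac7, Adam15, Axl and Crip1 (r 0.86 to 0.88), those most like Id2 were Alms1, Ezh2, Fcgr2b, Lyst and Zfp36l1 (0.80 to 0.83), and those most like Id1 were Wnt5b, Mark4, Snf8, Rrs1 and Phlda3 (0.74 to 0.87).

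Hepatocyte deletion was compared next, as HepDKO minus Control. No member was called in either tissue for the mean over the 4 times, for any time or for the 24-h rhythm, and 0% of all genes were called in each of these comparisons by edgeR. At an unadjusted p under 0.05, 1387 arcuate and 497 nodose genes passed for the mean over times, and DESeq2 called 23 and 3. In arcuate the mean differences on the log2 scale, with 95% intervals, were 0.02 (-0.18 to 0.22) for Id1, 0.01 (-0.088 to 0.10) for Id2 and -0.02 (-0.14 to 0.11) for Id3. For Id4 the difference was -0.08 (-0.15 to -0.00086), with an unadjusted p of 0.0477 and an adjusted p of 0.574 (edgeR). In nodose they were -0.04 (-0.37 to 0.29) for Id1, -0.12 (-0.39 to 0.16) for Id2, 0.07 (-0.26 to 0.40) for Id3 and -0.0028 (-0.32 to 0.31) for Id4. Without HepDKO ZT22 replicate 3 the value for Id2 was -0.03336. The nodose intervals are wide enough to hold changes that the arcuate intervals exclude.

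By time point, the HepDKO minus Control difference of Id4 in arcuate was -0.23 (SE 0.0748) at ZT4 and -0.24 (SE 0.0746) at ZT16, against 0.09 (SE 0.0746) at ZT10 and 0.08 (SE 0.0751) at ZT22. All 3 HepDKO libraries of ZT4, at 83.5 to 105 CPM, lay below all 3 Control libraries, at 107 to 115. At ZT16 the HepDKO libraries, at 104 to 117, lay below the Control libraries, at 120 to 139. The test over the 4 times gave an unadjusted p of 0.00221 and an adjusted p of 0.847 (edgeR), so the difference did not stand among all genes. Astrocyte and microglia marker sums, given above, also reached lower in HepDKO. With astrocyte and endothelial scores as covariates no member was called. The mean difference of Id4 over the 4 times was then -0.04 (adjusted p 0.973 by edgeR), against -0.08 without them, and its difference at ZT16 was -0.22, against -0.24. The part of microglia was not tested. In nodose the widest gap at a time was that of Id2 at ZT4, -0.63 (SE 0.272). There the HepDKO libraries (10.4 to 15.1 CPM) lay below the Control libraries (17.7 to 23.1 CPM), and the test over the 4 times had an adjusted p of 0.977 (edgeR). The shallowest library of the series, Control ZT4 replicate 1 with 47 Id2 counts, is in that comparison. No member was called for a difference in genotype effect between tissues, with an adjusted p of 1 for each by edgeR. There 0% of all genes were called, 827 passed at an unadjusted p under 0.05, and DESeq2 called 12.

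**Figure D4:**
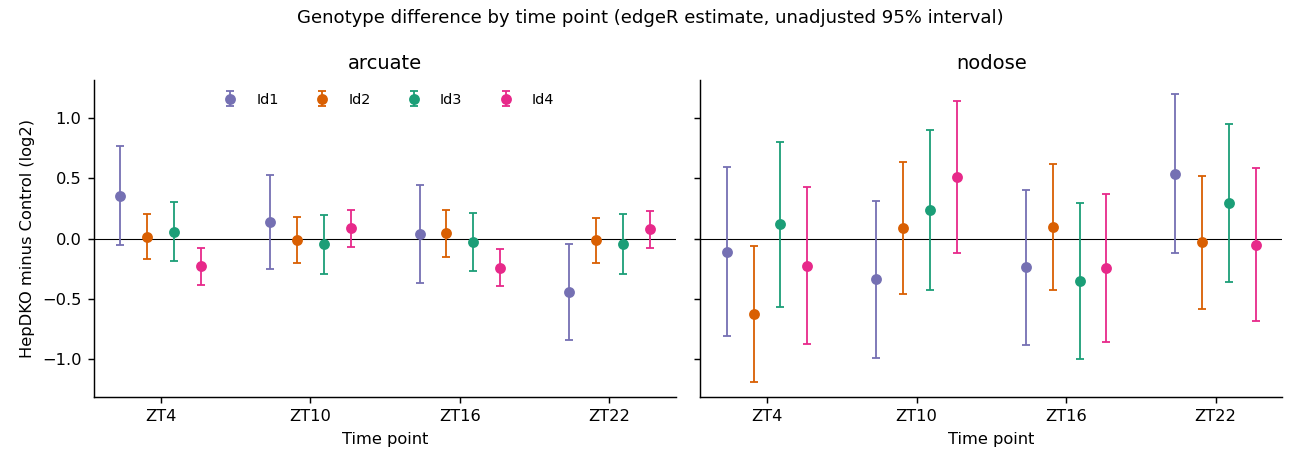
HepDKO minus Control on the log2 scale at each time point for the Id genes, by tissue, as edgeR estimates with unadjusted 95% intervals from 3 libraries per group. In arcuate, Id4 lies below 0 at ZT4 (-0.23) and ZT16 (-0.24) and Id1 at ZT22 (-0.44, or -0.07 without Control ZT22 replicate 1), and in nodose Id2 lies below 0 at ZT4 (-0.63); none was called after adjustment over all genes.

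The members stood in a different order in the 2 tissues. Per kilobase of exon (CPM divided by the length of the merged GENCODE exons), arcuate medians were 28.7 for Id4, 20.3 for Id2, 11.8 for Id3 and 6.42 for Id1 (n = 24 libraries). This exact order held in 23 of 24 libraries. In nodose the medians were 16.9 for Id3, 11.5 for Id1, 7.26 for Id2 and 4.42 for Id4, and that order held in 18 of 24 libraries. Id3 was above Id1 in 22, Id1 above Id2 in 21 and Id2 above Id4 in 23 of the 24 nodose libraries.

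Arcuate minus nodose, the log2 difference in level was 2.52 (SE 0.0728) for Id4 and 1.33 (SE 0.0637) for Id2, which were higher in arcuate. It was -1.04 (SE 0.0956) for Id1 and -0.77 (SE 0.0871) for Id3, which were higher in nodose. All 4 were called, as were 92.1% of all genes tested. Library preparation differed by tissue, with ribosomal RNA depletion named for nodose alone, and its part in these differences cannot be told apart from that of tissue. The libraries of the 2 tissues did not overlap for Id2 (39.9 to 73.4 against 6.42 to 25.6 CPM) or Id4 (83.5 to 139 against 10.5 to 26.5 CPM), whereas those of Id1 and Id3 did.

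**Figure D5:**
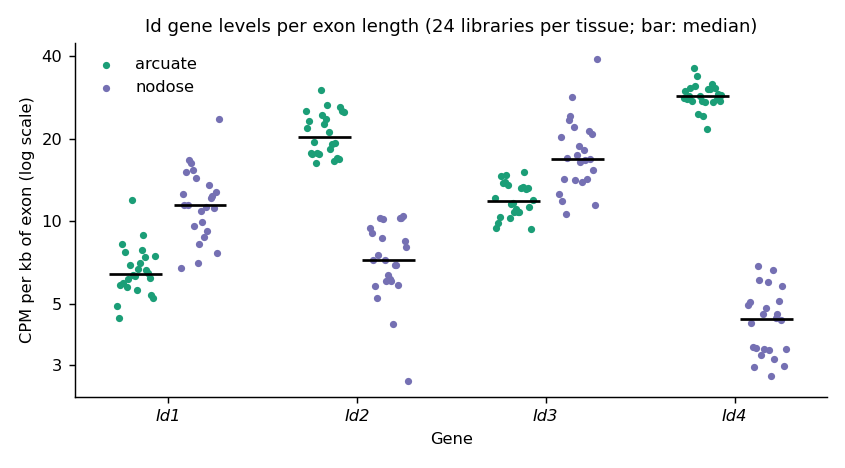
CPM per kilobase of exon of each Id gene on a log axis, 24 libraries per tissue as points and the median as a bar. Id4 and Id2 stand highest in arcuate and lowest in nodose, where Id3 and Id1 stand highest.

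The partners and upstream genes of the family were counted from fixed lists. E proteins, the direct partners of Id proteins, had no called 24-h rhythm in arcuate (0 of 3, against 3.86% of all genes): Tcf12 had an amplitude of 0.09 (adjusted p 0.102), Tcf3 of 0.07 (0.488) and Tcf4 of 0.07 (0.277) by edgeR. They had none in nodose (0 of 3, against 1.33% of all genes). All 3 were lower in arcuate than in nodose, in a comparison that called 92.1% of all genes, by -1.21 for Tcf12, -1.03 for Tcf4 and -0.24 for Tcf3 on the log2 scale.

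Among BMP receptors and SMADs, 1 of 12 was called rhythmic in arcuate, where 3.86% of all genes were, so a single call in 12 is near that share. It was Eng, a co-receptor of endothelial cells, with an amplitude of 0.22 (SE 0.0504, adjusted p 0.0285 by edgeR) and a peak at ZT19.9. None of 10 BMP ligands, 11 BMP and SMAD inhibitors or 14 tested basic helix-loop-helix partners and targets was called in arcuate. The median amplitudes were 0.18 for the ligands, 0.07 for receptors and SMADs, 0.08 for the inhibitors and 0.12 for the partners, against 0.07 over all genes. A fitted amplitude is never negative and grows with noise, so these medians alone do not show a rhythm. The 4 tested skeletal muscle markers had a median of 0.48 in arcuate with none called. In nodose, where 1.33% of all genes were called, none of 9 ligands, 12 receptors and SMADs, 11 inhibitors or 10 partners was. Genotype called none of these genes in either tissue, where it called 0% of all genes.

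Clock genes are given for comparison of phase. In arcuate 11 of 20 were called (3.86% of all genes), 6 with peaks in the light phase and 5 in the dark phase, and in nodose 15 of 19 were (1.33% of all genes). Arntl, the basic helix-loop-helix activator of the clock, peaked at ZT22.8 in arcuate with an amplitude of 0.24 (SE 0.0331). Per2, a clock repressor, peaked at ZT13.2 with an amplitude of 0.31 (SE 0.0269), near the peaks of Id3 and Id4. In nodose the amplitude of Arntl was 1.79 (SE 0.114) with a peak at ZT22.7, and that of Per2 was 1.34 (SE 0.148) with a peak at ZT12.4. Both differences in rhythm between tissues were called (adjusted p 7.9e-07 for Arntl and 0.00763 for Per2, edgeR). Of the clock list, 12 of 19 were called for this difference, where 0.373% of all genes were. Any part of the clock in the Id2 pattern of either tissue was not tested.

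Of the 622 called arcuate genes, 106 (17.04%) had a peak within 3 h of that of Id2, 185 (29.7%) within 3 h of that of Id3 and 204 (32.8%) within 3 h of that of Id4. The phase of Id2 was thus held by fewer called genes than the phase of Id3 and Id4.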

How the data were processed

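Gene counts deposited by the authors for 48 libraries were used. Per the submitters' processing notes, reads were checked with FastQC 0.11.7, trimmed with Trim Galore 0.6.10 and aligned with STAR 2.7.10b to mm10. The counting tool, its annotation and its use of strand are not given in the sources used here. Each tissue was filtered (filterByExpr), TMM-scaled and fitted with 1 mean per group in edgeR 4.0.16 (quasi-likelihood, robust, with limma 3.58.1, R 4.3.3). P-values were adjusted by Benjamini-Hochberg over all genes tested, with a threshold of 0.05. The 24-h rhythm was a joint test of ZT4 minus ZT16 and ZT10 minus ZT22. DESeq2 1.42.0, other size factors, no filter, a replicate block, marker covariates, 1 fit over both tissues and leaving out each library were the alternatives. The scripts were tested on simulated data. Named genes were the members, E proteins, list genes past the threshold and the 5 genes most correlated with each member per tissue. Mmp14, Arntl and Per2 values were given for context. Members and lists were chosen with earlier results of these data known. Within a tissue, libraries are labelled as biological replicates, each a pool of mice. Whether an arcuate and a nodose pool shared mice is not given in the labels, and the tests between tissues treated them as independent. Libraries were not paired by replicate number in the main fits. The mean correlation of same-numbered deviations was 0.0247 in arcuate and 0.00096 in nodose, against -0.0124 and -0.00038 for other numbers. Such means cannot show that no batch was shared.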

Additional observations from a re-analysis of the deposited data

How the results depend on the processing

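With all libraries kept, no tested member value crossed the threshold under any alternative, and 1 signed difference changed sign: the 12-h component of Id4 in arcuate, 0.0022 with marker scores as covariates. The amplitudes of Id2 had no test. Of 62 counts of called genes, 51 stayed within 1.5 times. DESeq2 called more genes: in arcuate 23 for genotype, 9 for genotype at any time, 1 for the rhythm difference, 20 for the 12-h component and 1075 for the 24-h rhythm. In nodose it called 3, 2, 8 and 383 for genotype, any time, the 12-h component and the 24-h rhythm, and between tissues 12 for genotype. A single fit over both tissues called 169 genes for the tissue difference in rhythm. With a replicate block the 24-h rhythm was called for 677 arcuate and 190 nodose genes, with an amplitude of 0.2151 for Id3, and the block changed no call of a member. The cause of these shifts was not tested.

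Leaving out 1 library at a time, arcuate counts ranged from 0 to 7 for genotype, 2 to 10 for the 12-h component and 287 (without HepDKO ZT16 replicate 2) to 1031 (without HepDKO ZT4 replicate 2) for the 24-h rhythm. Nodose counts ranged from 0 to 1 for genotype, 0 to 1 for the 12-h component and 129 to 276 for the 24-h rhythm. Between tissues they ranged from 0 to 8 for genotype and 20 to 64 for rhythm. The amplitude of Id3 in arcuate stayed called in 24 of 24 cases (0.2006 to 0.2422) and that of Id4 in 23 of 24 (0.1078 to 0.146). Uncalled values that changed sign were, for genotype in arcuate, Id1 (-0.02104 to 0.115), Id2 (-0.01483 to 0.03941) and Id3 (-0.04896 to 0.01523). At the single time of the widest genotype gap they were Id2 (-0.02207 to 0.07857, ZT16) and Id3 (-0.01189 to 0.1823, ZT4) in arcuate. For genotype in nodose they were Id1 (-0.1733 to 0.06025), Id3 (-0.1098 to 0.1482) and Id4 (-0.1127 to 0.0466). For the tissue difference in genotype effect they were Id1 (-0.03706 to 0.2015), Id3 (-0.1648 to 0.09615) and Id4 (-0.1235 to 0.0374). The 12-h components of Id4 in arcuate (-0.02951 to 0.007951) and of Id1 in nodose (-0.188 to 0.01573) also did. Nodose HepDKO ZT22 replicate 3 set an end of the range of the nodose genotype effect for Id1, Id2 (-0.1972 to -0.03336) and Id3, and of the nodose 12-h component for Id1, Id2 (0.2728 to 0.4366) and Id3 (0.03852 to 0.2933). In nodose, members had 16 to 400 counts per library, against 94 to 2571 in arcuate.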
